A study of Mus musculus with 8 samples.

Results

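Ogt and Oga, the gene pair that encodes both enzymes of O-GlcNAc cycling, were read out together in 8 RNA-seq libraries of mouse brown adipose tissue. Their rows were taken from the deposited gene table by symbol, Ogt under its current name and Oga under its older symbol Mgea5, so the pair made 2 of the 54532 genes of the table. The libraries fell into 4 from mice whose OGT was knocked out in brown adipocytes (OGTBKO) and 4 from wild-type mice (WT, treatment label "control"). Mice of both groups were kept at 23 °C on standard chow, were given the inducing agent after 8 weeks (the labels spell it gomaxifen) and gave tissue 2 months after induction, with the white fat around the depot taken off. Neither the Cre driver nor the exons removed, the sex or the age at the start is given in the sources used here. The tissue was taken whole although its cell type label reads adipocytes, so transcripts of adipocytes and of the other cells of the depot were measured as 1 mixture. In such bulk tissue fewer cells of a type and less RNA per cell cannot be told apart.

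O-GlcNAc is a single sugar, N-acetylglucosamine, that is put on and taken off nuclear, cytosolic and mitochondrial proteins. OGT, encoded on the X chromosome, is the transferase that adds the sugar from UDP-GlcNAc, the end product of the hexosamine pathway, and OGA is the hydrolase that removes it. In mammalian cells the amounts of OGT and OGA are known to respond to the amount of the modification. Blocking either enzyme is therefore often met by a change in the other. Both transcripts are also known to carry introns that can be kept in the RNA.

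The start regions of the pair are shown as a description, and their part in the levels measured here was not tested. Each run is 300 bases from RefSeq (build GRCm38.p6), from 250 bases before the annotated start to 50 bases after it, written 5′ to 3′ on the gene's own strand. Ogt lies at chrX:101639801-101640100 on the plus strand and is the first of 2 starts that RefSeq lists for the gene, and Oga lies at chr19:45783504-45783803 on the minus strand. Capitals mark the match to CGCANGCGC (or GCGCNTGCG on the other strand), the letters of an NRF1-type element, NRF1 being a factor known for nuclear genes of mitochondrial function.
Ogt: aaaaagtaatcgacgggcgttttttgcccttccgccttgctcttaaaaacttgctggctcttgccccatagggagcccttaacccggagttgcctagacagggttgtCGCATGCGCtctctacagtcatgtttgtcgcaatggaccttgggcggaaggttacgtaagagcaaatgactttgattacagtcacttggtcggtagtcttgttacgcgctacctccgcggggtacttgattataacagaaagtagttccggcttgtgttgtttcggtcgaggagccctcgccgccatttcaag
Oga: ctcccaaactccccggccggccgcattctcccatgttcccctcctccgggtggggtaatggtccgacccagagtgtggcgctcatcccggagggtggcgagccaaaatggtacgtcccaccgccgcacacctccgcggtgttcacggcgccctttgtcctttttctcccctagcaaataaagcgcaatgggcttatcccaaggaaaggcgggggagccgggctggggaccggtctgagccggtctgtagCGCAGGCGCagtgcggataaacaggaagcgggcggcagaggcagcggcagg
Each promoter held 1 such match, and 6.31% of 32851 RefSeq promoters of this length held it. The match began 143 bases before the Ogt start and 1 base before the Oga start, so most of the Oga match lay past the start. A GC box, GGGCGG on either strand, was found once in each, and in 35.7% of promoters. A YY1-type element, GCCGCCAT on either strand, was found in Ogt and not in Oga, and in 2.24% of promoters. Neither window held a cAMP response element (TGACGTCA, in 1.79% of promoters), an E-box (CACGTG, in 7.15%) or the core of a hypoxia response element (ACGTG, in 19.6%) on either strand. Neither held a CCAAT box (those letters, in 37.4%) or a TATA box (TATAAA, in 13.6%). The Ogt window held 20 CpG at 51.0% GC and the Oga window 26 CpG at 65.3% GC, against a median of 52.7% GC over all promoters. These motifs were chosen after the promoters had been read, the E-box contains the hypoxia response core, and a match describes letters and no bound factor.

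Reads in genes numbered 13393962 to 15897920 per library. Values are FPKM, fragments per kilobase of gene scaled by a depth that the authors set, and 1 library stood apart: WT 3 had 39.4% of its reads in mitochondrial genes, against 25.2% to 30.2% in the OGTBKO libraries and 27.2% to 32.2% in the other WT libraries. Its FPKM denominator was 0.790 times its own total, against 0.966 to 1.13 times in the other libraries. All 7 brown adipocyte markers had reads in every library. Skeletal muscle markers summed to 1099 FPKM in OGTBKO 1 and to 375 FPKM in WT 1, against 0.626 to 3.55 FPKM in the other OGTBKO libraries and 0.383 to 29.1 FPKM in the other WT libraries. Xist had 12 reads over all 8 libraries, and the Y-linked Ddx3y measured 20.5 to 22.2 FPKM in OGTBKO and 21.6 to 28.9 FPKM in WT libraries. Of the 4 Y-linked genes looked at, all with reads in every library, 1 was called, beside 15.6% of all tested genes. It was Uty, at 3.32 ± 0.321 FPKM in OGTBKO and 4.79 ± 0.315 FPKM in WT tissue (SD, n = 4 each; log2 -0.47, limma adjusted p = 0.0162). That call ended without OGTBKO 3 or WT 2 (limma adjusted p = 0.0560 and 0.0543) and when a trend over GC content and length was taken out (-0.07, limma adjusted p = 0.652).

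Ogt, the gene that the knockout targets, was lower in all 4 OGTBKO libraries but remained detected in each. It spans 101640060 to 101684351 on the plus strand of chromosome X (ENSMUSG00000034160, mm10). Its level was 10.7, 14.5, 12.8 and 11.8 FPKM in OGTBKO 1 to 4, against 33.1, 24.7, 23.9 and 22.5 FPKM in WT 1 to 4. The groups did not overlap, with WT 1 the highest library and the remaining WT libraries close to one another. These levels rest on 1407, 1885, 1847 and 1318 reads in OGTBKO 1 to 4 and on 3691, 2841, 2036 and 2954 reads in WT 1 to 4. The means were 12.4 ± 1.65 FPKM in OGTBKO and 26.0 ± 4.80 FPKM in WT tissue (SD, n = 4 each), so the OGTBKO mean was 47.8% of the WT mean. In single OGTBKO libraries the level lay between 40.9% (OGTBKO 1) and 55.9% (OGTBKO 2) of the WT mean. On the log2(FPKM + 0.5) scale, which slightly understates a change, the difference was -1.03 ± 0.14 (SE; 95% interval -1.35 to -0.70; limma, Benjamini-Hochberg adjusted p = 0.00511 over 13171 genes). The exact permutation p, two-sided and over 70 ways to assign the libraries, was 0.0286, which is as low as this design can reach. The value covers the whole gene, and no value per exon was analysed here. The mean Ogt level in OGTBKO tissue was higher than that of 81.2% of tested genes, against 90.9% in WT tissue.

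Oga, which encodes the enzyme that takes the sugar off, was also lower in OGTBKO tissue. Oga (listed as Mgea5, ENSMUSG00000025220, chromosome 19, 45750261 to 45783520, minus strand, mm10) measured 8.18, 7.53, 7.79 and 5.48 FPKM in OGTBKO 1 to 4, against 16.0, 14.1, 9.68 and 13.7 FPKM in WT 1 to 4. The groups did not overlap, but WT 3 lay nearer to OGTBKO 1 than to the next WT library. Reads numbered 675, 609, 704 and 383 in OGTBKO 1 to 4 and 1111, 1011, 515 and 1125 in WT 1 to 4. The means were 7.24 ± 1.21 FPKM in OGTBKO and 13.3 ± 2.64 FPKM in WT tissue (SD, n = 4 each), which put the OGTBKO mean at 54.3% of the WT mean. The log2 difference was -0.83 ± 0.17 (SE; 95% interval -1.22 to -0.44; limma adjusted p = 0.0165), and the exact permutation p was 0.0286. The call ended when FPKM was rebuilt on library totals (log2 -0.72, limma adjusted p = 0.0915), a scaling that moved the median of all genes to 0.09, and without WT 2 (-0.80, limma adjusted p = 0.0526). Without WT 3, the library with the high mitochondrial share, the difference was -0.97 (limma adjusted p = 0.00876). An antisense gene, Gm15491, overlaps 2050 bases at the 3′ end of Oga and had 3 reads in all, and whether counting used strand is not given in the sources used here.

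**Figure D1:**
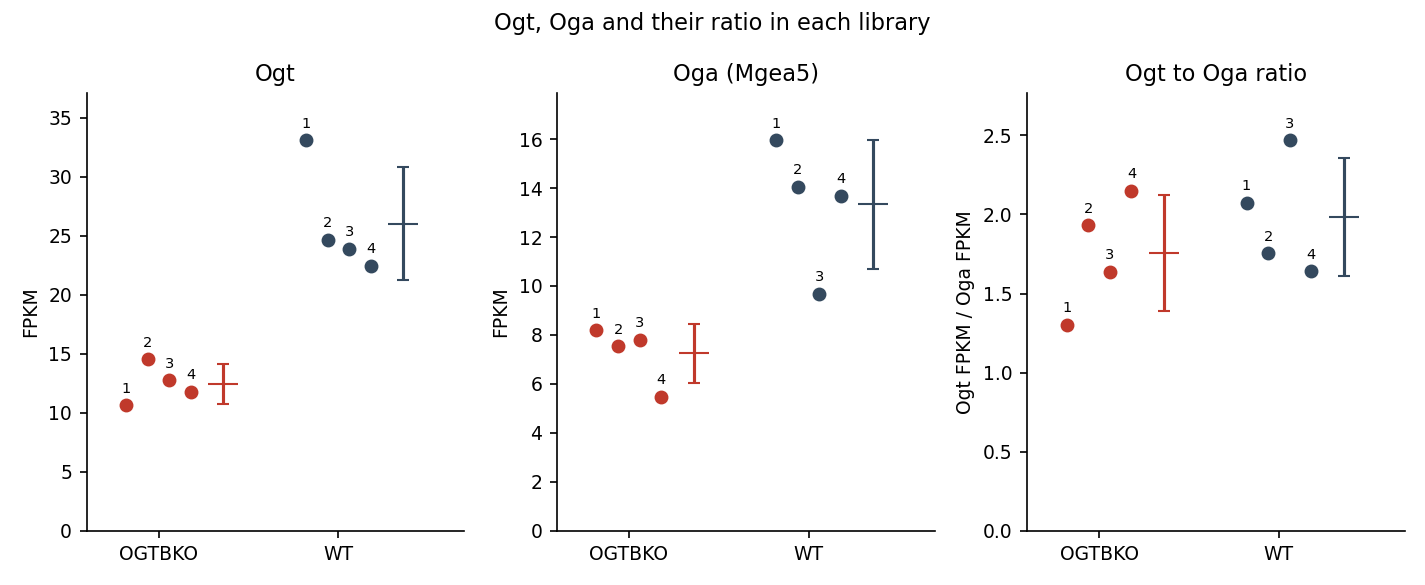
FPKM of Ogt (left) and Oga (middle) and the ratio of their FPKM (right) in each library, OGTBKO in red and WT in dark blue, with replicate numbers above the points and mean ± SD over 4 libraries beside them. All 4 OGTBKO libraries lie below all 4 WT libraries for both genes (Ogt 10.7 to 14.5 against 22.5 to 33.1, Oga 5.48 to 8.18 against 9.68 to 16.0), while the ratios overlap.

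Both genes of the pair were called lower, where 15.6% of the 13171 tested genes were called in either direction and 7.46% were called lower. The calls comprised 1068 higher and 982 lower genes, a split that became 980 higher and 249 lower with library totals as denominators. Non-overlapping groups with OGTBKO below WT, as seen for Ogt and Oga, occurred in 11.4% of tested genes. Of the tested genes, 1.19% had a more negative log2 difference than Ogt, and 2.25% had one than Oga. By p-value Ogt ranked 125 and Oga 688. Of the 982 genes called lower, 82 fell at least 2-fold. Ogt and Oga transcripts are low in GC, 42.9% and 46.7% against a median of 49.4% over tested genes. With the trend of log2 values over GC content and length taken out per library, the log2 difference was -0.81 for Ogt (limma adjusted p = 0.0152) and -0.75 for Oga (limma adjusted p = 0.0339).

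**Figure D2:**
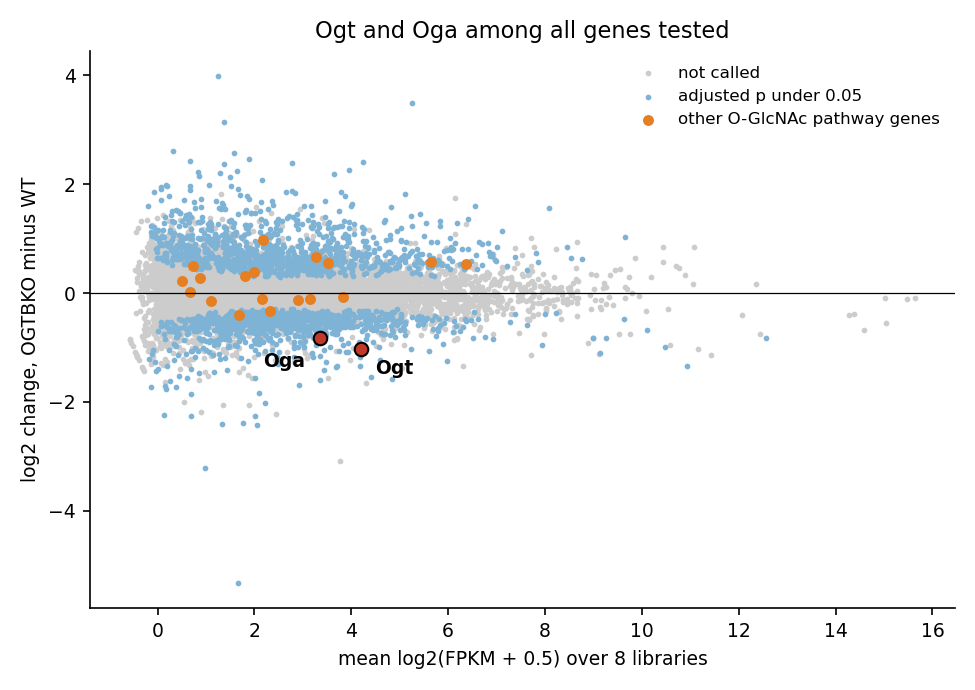
Log2 difference (OGTBKO minus WT) against mean log2(FPKM + 0.5) for the 13171 tested genes, with called genes in blue, other O-GlcNAc pathway genes in orange and Ogt and Oga in red. Ogt at -1.03 and Oga at -0.83 lie below most of the tested genes.

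The ratio of Ogt to Oga addressed whether the targeted transcript and its partner fell by different amounts. It was 1.30, 1.93, 1.64 and 2.15 in OGTBKO 1 to 4 and 2.07, 1.75, 2.47 and 1.64 in WT 1 to 4, as FPKM over FPKM. The groups overlapped over most of their range, and OGTBKO 1 was the lowest library and WT 3 the highest. The mean ratio was 1.76 ± 0.368 in OGTBKO and 1.98 ± 0.372 in WT tissue (SD, n = 4 each). The mean log2 ratio was 0.79 ± 0.32 in OGTBKO and 0.97 ± 0.26 in WT, a difference of -0.18 (95% interval -0.92 to 0.39, exact permutation p = 0.400). The interval corresponds to an OGTBKO ratio of 0.527 to 1.31 times the WT ratio, so a moderate difference in either direction was not detectable with 4 libraries a group. Without OGTBKO 1 the difference was -0.05 (exact permutation p = 0.800), and without WT 3 it was -0.07 (exact permutation p = 0.743). Over the 8 libraries the SD of the log2 level was 0.59 for Ogt and 0.51 for Oga, against 0.29 for the log2 ratio. These SDs include the difference between the groups, which is large for each gene and small for the ratio. They therefore do not show that the 2 genes move together within a group.

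The size of the ratio depended on the length each gene was divided by. The deposited gene lengths are 8045 bases for Ogt, with 7 annotated transcripts of which 3 are retained-intron forms, and 5024 bases for Oga, with 6 transcripts of which 2 are retained-intron forms (GENCODE M21). Divided instead by the length of the main coding transcript, 5384 bases for Ogt and 5057 bases for Oga, the ratios became 1.96, 2.91, 2.46 and 3.23 in OGTBKO 1 to 4 and 3.12, 2.64, 3.71 and 2.47 in WT 1 to 4. Ogt was the more abundant of the pair in every library under both lengths. The difference between the groups in log2 ratio was the same by construction, since a change of length shifts every library alike.

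Co-variation beyond the group difference was not resolved by these 8 libraries. After each gene's group mean was taken off, Ogt deviated by -0.21, 0.23, 0.05 and -0.07 in OGTBKO 1 to 4 and by 0.36, -0.06, -0.10 and -0.19 in WT 1 to 4 on the log2 scale. Oga deviated by 0.18, 0.07, 0.11 and -0.36 in OGTBKO 1 to 4 and by 0.27, 0.09, -0.42 and 0.06 in WT 1 to 4. WT 1 was high for both genes, OGTBKO 4 and WT 3 were low mainly for Oga, and OGTBKO 1 and WT 4 were low for Ogt but not for Oga. Pearson's r of the deviations was 0.374 (exact permutation p = 0.391, 576 rearrangements within groups, n = 8) and Spearman's rho was 0.357 (exact permutation p = 0.438). Without OGTBKO 2 and WT 1, the libraries farthest from the median of Ogt, r was -0.147 (exact permutation p = 0.944) and rho -0.314 (exact permutation p = 0.750). Without WT 1 alone r was 0.0147, without OGTBKO 2 alone it was 0.368 and without OGTBKO 1 alone it was 0.606. With both WT 1 and OGTBKO 1 left out, a setting added with the data known, r was 0.410. The value thus depended on which libraries were kept. With library totals as denominators r was 0.734 (exact permutation p = 0.118). Both genes share the depth scaling of a library in every setting. Among 13170 genes, 23.7% had a higher within-group r with Ogt than Oga had.

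**Figure D3:**
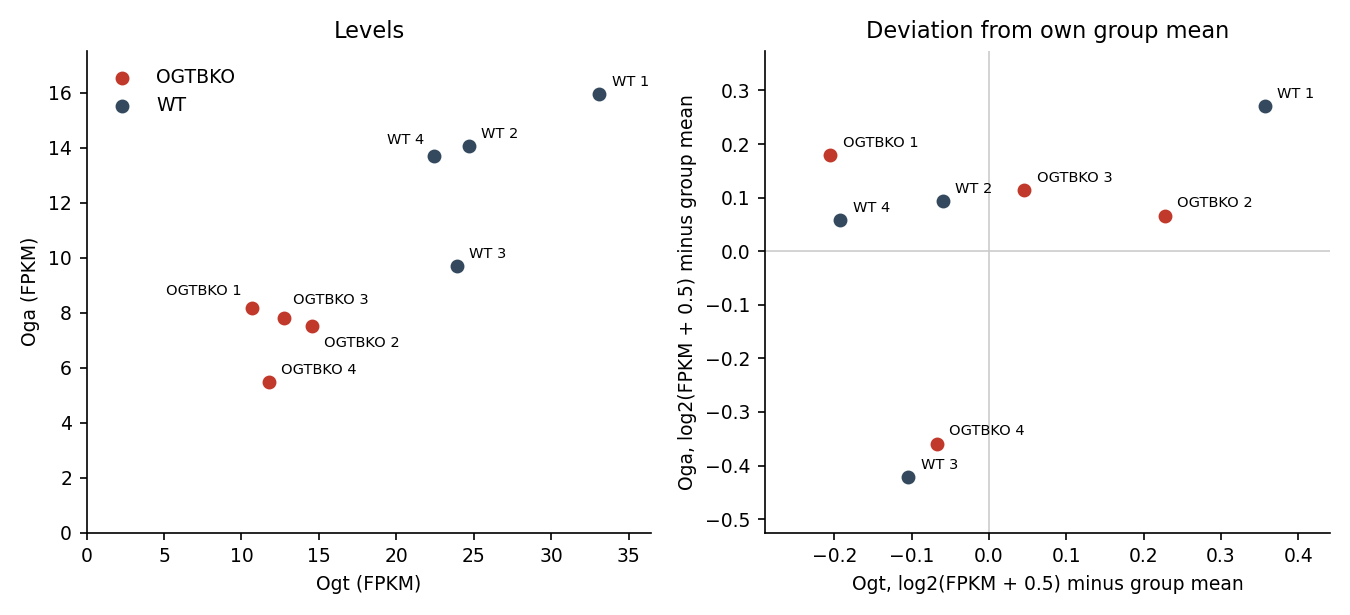
Oga against Ogt in each library, as FPKM (left) and as the deviation of log2(FPKM + 0.5) from the group mean (right), with OGTBKO in red and WT in dark blue. The groups form separate clusters on the left, and on the right the 8 points scatter (r = 0.374) with WT 1 at the upper right and OGTBKO 4 and WT 3 at the bottom.

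Genes whose pattern over all 8 libraries was most like that of Ogt or Oga are described next. The measure was Pearson's r of log2(FPKM + 0.5) among 9877 protein-coding genes averaging at least 1 FPKM over the 8 libraries. All genes of a library share its depth, and the groups differ for both genes, so r is given as a measure of likeness only. Because of that group difference, a high r favours genes that are lower in OGTBKO tissue. The log2 differences and calls of the genes picked therefore follow partly from the pick and give no separate support. The 5 most like Ogt were Sema6d (r = 0.987), a semaphorin, N4bp2l2 (0.984), Ythdc2 (0.980), a reader of methylated RNA, Smc5 (0.976), a subunit of a DNA repair complex, and Ubn2 (0.976), which takes part in histone deposition. Their log2 differences were -0.64 for Sema6d (limma adjusted p = 0.00981), -0.20 for N4bp2l2 (0.140), -0.60 for Ythdc2 (0.0257), -0.46 for Smc5 (0.0265) and -0.56 for Ubn2 (0.00945). All 5 were smaller in size than that of Ogt. The N4bp2l2 value was 0.22 with the GC and length trend removed, and the calls of Ythdc2, Smc5 and Ubn2 ended there (limma adjusted p = 0.153, 0.395 and 0.119). With a library left out, the Smc5 call was lost in 5 and the Ythdc2 call in 4 of 8 fits. Ythdc2 averaged 0.980 FPKM in OGTBKO and 1.74 FPKM in WT tissue, so it passed 1 FPKM only through its WT level.

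The 5 most like Oga were Ccar1 (r = 0.981), a regulator of cell cycle and apoptosis, Ifi211 (0.979), of the interferon-inducible p200 family, Scyl3 (0.974), Prdm9 (0.973), a histone methyltransferase best known from meiosis, and Clk3 (0.969), a kinase of splicing factors. Their log2 differences were -0.64 for Ccar1 (limma adjusted p = 0.0190), -0.52 for Ifi211 (0.0349), -0.28 for Scyl3 (0.0842), -0.50 for Prdm9 (0.0229) and -0.49 for Clk3 (0.0435). Prdm9 had the only call among them that was kept with the trend removed (limma adjusted p = 0.0436), and Ifi211 belongs to a family of close copies, so its reads may be shared. With a library left out, the Ifi211 and Clk3 calls were lost in 7 of 8 fits each, the Prdm9 call in 3 and the Ccar1 call in 2. Ifi211 averaged 0.908 FPKM in OGTBKO and 1.53 FPKM in WT tissue, so it passed 1 FPKM only through its WT level. Neither gene was in the other's list. Among 13170 tested genes, a wider pool than the 9877 of the lists, Oga ranked 342 for Ogt at r = 0.881. Ogt ranked 193 for Oga in that wider pool. By deviation from group means the closest genes were others, led by Hnrnpa3 (r = 0.972), Tmem255b (0.967), Zfand5 (0.959), Tmem173 (0.958) and Cd209a (0.955) for Ogt. For Oga they were Mum1 (0.981), C1qa (0.969), Bcar3 (0.968), Sox18 (0.959) and Cbr2 (0.950).

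The genes next to Ogt and Oga on their chromosomes were read as a local comparison, with the 5 nearest tested genes on each side. Of the 10 around Ogt, 2 were called lower and 1 higher, beside 7.46% of all tested genes called lower and 8.11% called higher, with a median log2 difference of -0.08 and a range of -1.05 to 1.78. Taf1, a subunit of TFIID that ends 38.3 kb from Ogt, measured 3.94 ± 0.254 FPKM in OGTBKO and 5.54 ± 0.682 FPKM in WT tissue (SD, n = 4 each; log2 -0.44, limma adjusted p = 0.0274). That call ended with the trend removed (limma adjusted p = 0.189) and without OGTBKO 2, OGTBKO 3 or OGTBKO 4 (limma adjusted p = 0.0622, 0.0823 and 0.0655). Tpt1-ps6, 84.2 kb away, had a log2 difference of -1.05 (limma adjusted p = 0.0469), but it averaged 0.355 FPKM in OGTBKO and 1.27 FPKM in WT tissue, so it passed the filter of 0.5 FPKM only through its WT level. It is a pseudogene near-identical to Tpt1, its reads are uncertain, and the call was lost in 7 of 8 fits that left out a library. Pin4, a prolyl isomerase 435 kb away, was higher, with 6.36 ± 1.60 FPKM in OGTBKO and 1.58 ± 0.959 FPKM in WT tissue (SD, n = 4 each; log2 1.78, limma adjusted p = 0.00875). The deposited length of Pin4 is only 651 bases and its lowest WT library measured 0.858 FPKM, so its WT levels rest on few reads. Nono, an RNA-binding protein gene 191 kb away, differed by 0.07 (limma adjusted p = 0.663). No gene of the table overlaps Ogt.

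Around Oga, 3 of 10 neighbours were called, all of them higher, beside 15.6% of all tested genes called and 8.11% called higher, with a median log2 difference of 0.12 and a range of -0.71 to 0.68. They were Fbxw4, an F-box gene (log2 0.68, limma adjusted p = 0.0226), Ldb1, a LIM-domain-binding cofactor (0.37, 0.0477), and Nolc1, a nucleolar protein gene (0.44, 0.0432). The Fbxw4 and Ldb1 calls ended with the trend removed (limma adjusted p = 0.0701 and 0.252). With a library left out, the Ldb1 and Nolc1 calls were lost in 7 of 8 fits each and the Fbxw4 call in 4. Npm3, a histone chaperone gene 0.670 kb past the 3′ end of Oga, differed by -0.03 (limma adjusted p = 0.916), and its sign turned with library totals (0.073). Armh3, 34.6 kb on the other side, differed by -0.21 (limma adjusted p = 0.399). None of the 10 was called lower as reported, but Poll, a DNA polymerase gene 190 kb away, measured 2.16 ± 1.01 FPKM in OGTBKO and 3.69 ± 0.689 FPKM in WT tissue (SD, n = 4 each; log2 -0.71, limma adjusted p = 0.0711) and was called lower with the trend removed (-0.95, limma adjusted p = 0.0324) and without OGTBKO 1 (-0.95, limma adjusted p = 0.0166).

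**Figure D4:**
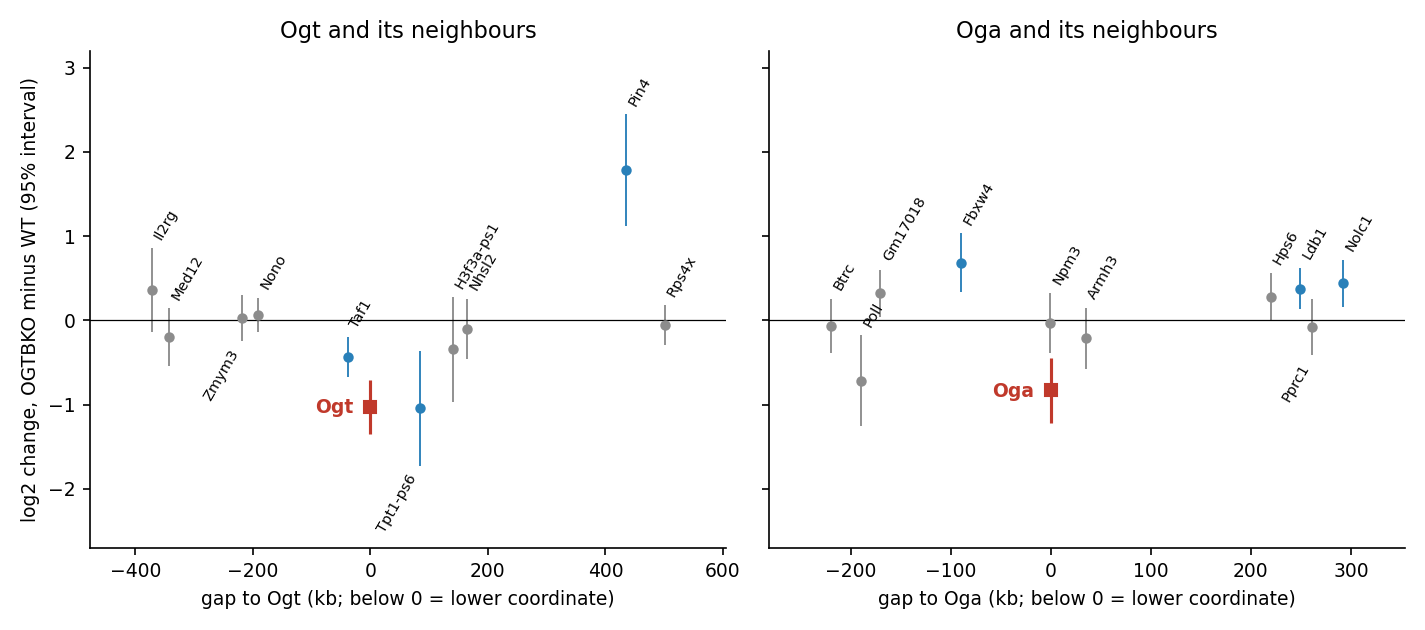
Log2 difference (OGTBKO minus WT) with its 95% interval for the 5 nearest tested genes on each side of Ogt (left) and Oga (right), against the gap in kb, with called genes in blue, others in grey and Ogt and Oga as red squares. Ogt (-1.03) and Oga (-0.83) lie below most neighbours, Tpt1-ps6 at -1.05 (0.355 FPKM in OGTBKO, under the filter) being the exception beside Ogt, and Pin4 at 1.78 is the highest point.

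Among the other genes of the pathway, 1 was called lower and 3 were called higher. The list held 20 genes of UDP-GlcNAc synthesis, hexosamine salvage, sugar nucleotide transport and the glycolytic steps before them, together with Eogt, the transferase of extracellular O-GlcNAc, and Hcfc1, of which 18 passed the level filter and Gnpnat1 and Nanp did not. The remaining 14 were not called, and the 18 had a median log2 difference of 0.25, against -0.00 over all tested genes and 15.6% called. Hk1, a hexokinase at the entry of glucose into metabolism, measured 5.93 ± 0.812 FPKM in OGTBKO and 2.83 ± 0.859 FPKM in WT tissue (SD, n = 4 each; log2 0.98, limma adjusted p = 0.0137). Hcfc1, a transcription cofactor that OGT is known to cleave and modify, measured 13.3 ± 1.04 FPKM in OGTBKO and 8.99 ± 0.937 FPKM in WT tissue (log2 0.55, limma adjusted p = 0.0129), a call that ended with the replicate block (limma adjusted p = 0.0573). Slc35b4, a Golgi transporter of nucleotide sugars, was the lower one, with 2.31 ± 0.214 FPKM in OGTBKO and 3.22 ± 0.223 FPKM in WT tissue (log2 -0.41, limma adjusted p = 0.0275). The Slc35b4 call ended with the trend removed (limma adjusted p = 0.0778) and, with a library left out, in 5 of 8 fits, and the count of 4 became 2 without OGTBKO 3, OGTBKO 4, WT 2 or WT 4.

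Ordered by FPKM, which is per length, the place of the pair among its pathway changed. In WT tissue Gpi1 (71.0 FPKM) and Hk2 (41.8 FPKM), both glycolytic enzymes, came before Ogt (26.0 FPKM), and Uap1 (14.2 FPKM), which makes UDP-GlcNAc, stood between Ogt and Oga (13.3 FPKM). Uap1 and Oga did not differ beyond their spread in WT tissue, with SDs of 2.31 and 2.64 FPKM. In OGTBKO tissue Ogt was the 5th and Oga the 8th of the 22 genes, against the 3rd and the 5th in WT tissue.

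Markers of cell types were set beside the pair because the tissue was taken whole. The counts of called markers stand beside 15.6% of all tested genes called in either direction. Brown adipocyte markers summed to 1701 to 2195 FPKM in OGTBKO and 2309 to 3626 FPKM in WT libraries, and did not overlap. Ucp1 made up most of these sums: the other 6 markers summed to 796 to 1169 FPKM in OGTBKO and 669 to 1234 FPKM in WT libraries, which overlap. Of the 7, Ucp1, the uncoupling protein (log2 -0.999, limma adjusted p = 0.0113), Ppargc1a, a coactivator of mitochondrial genes (-0.87, 0.00628), and Prdm16, a brown fat regulator (-0.49, 0.0466), were lower, and Cox7a1, a cytochrome oxidase subunit (1.14, 0.00317), was higher. The uncalled members were Cidea, Elovl3 and Dio2. Cidea, a lipid droplet protein gene, measured 634 ± 132 FPKM in OGTBKO and 671 ± 159 FPKM in WT tissue (SD, n = 4 each). Elovl3, a fatty acid elongase gene, measured 138 ± 57.2 FPKM in OGTBKO and 55.9 ± 48.1 FPKM in WT tissue. Dio2 measured 25.3 ± 8.81 FPKM in OGTBKO and 58.6 ± 43.6 FPKM in WT tissue (log2 -0.96, limma adjusted p = 0.222), with overlapping groups. The Ucp1 call ended with library totals (log2 -0.88, limma adjusted p = 0.0516) and without the level filter (limma adjusted p = 0.0763). The Prdm16 call ended in 6 of the 8 fits that left out a library (highest limma adjusted p = 0.127). General adipocyte markers summed to 2798 to 3527 FPKM in OGTBKO and 2242 to 3087 FPKM in WT libraries, with 1 of 7 called, the lipase gene Lipe (0.60, limma adjusted p = 0.0165), a call that ended without OGTBKO 3 or WT 2 (limma adjusted p = 0.0559 and 0.0543). Endothelial markers summed to 106 to 116 FPKM in OGTBKO and 85.0 to 111 FPKM in WT libraries, with 1 of 5 called, Cdh5 (0.35, limma adjusted p = 0.0413), a call lost in 7 of the 8 fits that left out a library. Sums for macrophage markers were 66.2 to 96.5 FPKM in OGTBKO and 56.9 to 72.4 FPKM in WT, and those for fibroblast markers were 128 to 314 FPKM in OGTBKO and 175 to 225 FPKM in WT. None of the 5 macrophage and 4 fibroblast markers was called. Pericyte and smooth muscle markers summed to 118 to 138 FPKM in OGTBKO and 95.1 to 169 FPKM in WT, Schwann cell markers to 37.3 to 49.2 FPKM in OGTBKO and 44.5 to 63.1 FPKM in WT, and lymphocyte markers to 1.80 to 2.94 FPKM in OGTBKO and 1.79 to 2.28 FPKM in WT, with none called. Their part in the levels of Ogt and Oga was not tested. With OGTBKO 1 and WT 1, the libraries highest in skeletal muscle markers, both left out, a setting added with the data known, the log2 difference was -0.84 for Ogt (limma adjusted p = 0.0104) and -0.80 for Oga (limma adjusted p = 0.0358).

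**Figure D5:**
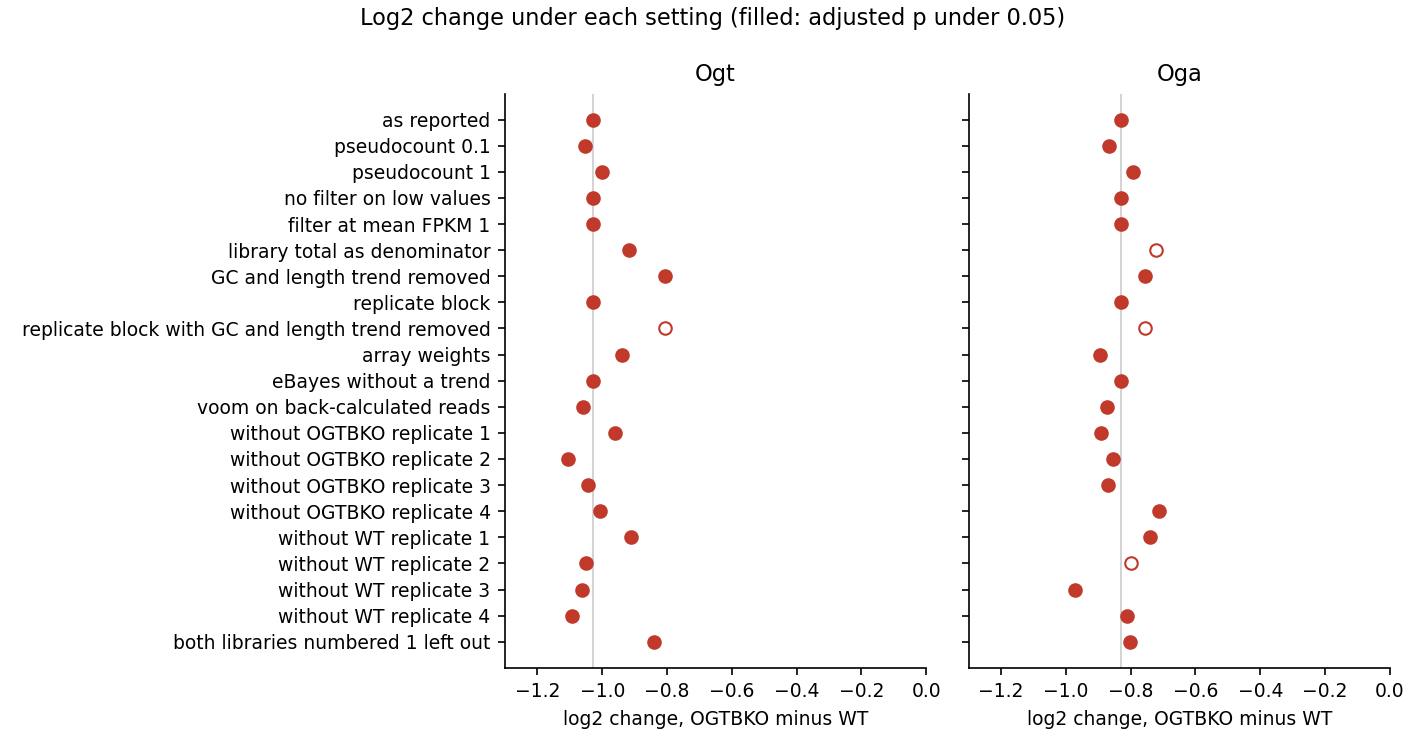
Log2 difference (OGTBKO minus WT) of Ogt (left) and Oga (right) under each setting of the processing, with filled points where the limma adjusted p was under 0.05 and a grey line at the value as reported. Ogt stays between -1.10 and -0.81 and Oga between -0.97 and -0.71, and open points mark the settings in which a call ended.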

How the data were processed

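Brown adipose tissue RNA was sequenced from NEBNext Ultra RNA libraries, per the labels' protocols. HISAT2 2.0.5, featureCounts 1.5.0-p3, Subread and build mm10 are named in the submitters' processing notes. The authors deposited FPKM for 54532 genes in 8 libraries, and all 8 value columns were used. FPKM times length gave whole multiples of 1 read in 100% of values (tolerance 0.001), so reads were back-calculated. Deposited denominators were 0.790 to 1.13 times the library totals, so values were already scaled between libraries. Genes with a mean of at least 0.5 FPKM (13171) were compared as log2(FPKM + 0.5) with limma 3.58.1 in R 4.3.3 (moderated, two-sided, mean-variance trend, no covariates, adjusted over all 13171 genes), and the steps were tested on simulated data. Exact permutation tests and figures used Python 3.11.15 with scipy 1.17.1. GC and length came from GENCODE M21 and the table. A gene was called at adjusted p under 0.05, errors are SDs or SEs as stated, and intervals cover 95%. Genes named were the pair, those most like each by r, 5 neighbours a side, the pathway genes with the smallest p or a call, and called markers; 1 pathway gene is not reported here. The members and lists were chosen with earlier results of these data known. Libraries of a group differed by a chi-square of 19.1 to 120 per degree of freedom, so none was counted as a repeat. Nothing says that samples came from separate animals, so p-values measure the spread between samples. Alternatives varied the pseudocount, filter, denominators, GC and length trend, replicate block, weights, variance model and libraries left out.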

Additional observations from a re-analysis of the deposited data

Results flagged for a closer look

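In OGTBKO tissue 1 library lay far above the other 3 for each of 2 genes. Prdm16 reached 3.05 FPKM in OGTBKO 1, against 2.04 to 2.20 FPKM in the other OGTBKO libraries. Uty, a Y-linked gene, reached 3.80 FPKM in its highest OGTBKO library, against 3.12 to 3.23 FPKM in the others. Groups tested this way numbered 68 and chance alone would mark about 1 in 20 of them. Neither Ogt, Oga nor their ratio was marked in either group.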

How the results depend on the processing

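Ogt kept its call in 19 of 20 alternatives and Oga in 17 of 20, and neither changed direction. Without a library in turn, the log2 difference ranged from -1.10 to -0.91 for Ogt and from -0.97 to -0.71 for Oga, whose call ended without WT 2 (-0.80, limma adjusted p = 0.0526). The Oga call also ended with library totals (-0.72, limma adjusted p = 0.0915). With the replicate block, the limma adjusted p was 0.0273 for Ogt (-1.03) and 0.0410 for Oga (-0.83), the ratio differed by -0.18, and 888 genes and 1 pathway gene were called. With the replicate block and the trend removed together, both calls ended (Ogt -0.81, limma adjusted p = 0.0517; Oga -0.75, 0.0639), with 509 genes and 2 pathway genes called. The numbers were not taken as pairs because the labels do not say what a number marks. Samples of the same number deviated together with r = 0.220, 0.169, 0.0143 and -0.00696. In each group 2 of 4 libraries were matched best by their own number. With so few libraries this cannot decide whether the numbers mark pairs. The 2050 genes called became 1229 without a filter, 1229 with library totals, 3516 with array weights, and 694 to 2115 without a library in turn (1173, 694 and 957 without OGTBKO 2, 3 and 4, and 771 and 1188 without WT 2 and WT 4). The 4 pathway calls became 2 without a filter, with library totals or with the trend removed, 8 with array weights, and 2 to 4 without a library in turn. The difference in ratio stayed between -0.29 and -0.02 over 14 alternatives and the within-group r between 0.0147 and 0.734 over 12, none of which passed its test. A change of length or the replicate block cannot move the difference in ratio, so those alternatives give no check of its size. N4bp2l2 turned to 0.22 with the trend removed, with and without the replicate block. Npm3, at -0.03 as reported, turned to 0.073 with library totals and ranged from -0.17 to 0.094 without a library in turn, turning to 0.094 without WT 1 and 0.016 without WT 4, and was 0.10 with both libraries numbered 1 left out, a setting added after the data were seen. Of the other 25 genes called, 4 (Cox7a1, Hk1, Pin4 and Ppargc1a) kept the call in every alternative. The causes of these changes were not tested. Depth did not limit the pair, which had at least 383 reads a library, but 4 libraries a group limit the ratio and the co-variation.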
